A study of Homo sapiens with 4 samples.

Results

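The genes examined here encode proteins of the cytosolic ribosome, the machine that translates nuclear mRNAs. They are 49 named genes, 29 for the large subunit and 20 for the small subunit, found by symbol among 60658 gene identifiers in each table of expression values. All 49 matched 1 identifier, and all 49 were among the 14803 genes with a mean FPKM (fragments per kilobase of gene, scaled to library depth) of at least 1. A further 31 cytosolic ribosomal protein genes outside this set were used for comparison.

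The libraries came from HT29 and LIM1215, which are 2 established lines of human colorectal cancer cells. In each line, cells that received a negative control siRNA (NC) were compared with cells that received an siRNA against TMEM161A (si2), a gene for a transmembrane protein. The labels give no genetic change, dose or time for either group, and siRNA transfection is common to all 4 libraries. Each combination of line and siRNA has 1 library, so no value carries an error between cultures and no comparison within a line can be tested. Each line serves as the only repeat of the other, and a test that treats the lines as 2 pairs, which would be very weak, was not run.

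Each ribosome needs 1 copy of nearly every ribosomal protein, and the genes for these proteins are expressed together at high level from many chromosomes. Their mRNAs typically open with a C followed by a run of pyrimidines, the terminal oligopyrimidine (TOP) tract, through which mTOR and the RNA-binding protein LARP1 adjust translation and stability. When ribosome assembly is disturbed, RPL5 and RPL11 bind the ubiquitin ligase MDM2 together with 5S rRNA. Intestinal tumour cells are known for high ribosome production, which MYC drives.

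Start-site sequences are shown first, because the TOP tract is the feature these genes share. RefSeq (GRCh38.p14) listed a start for 42 of the members. In 29 of them (69.0%) a listed start opened with C followed by at least 4 further pyrimidines (C or T, on the gene's strand). The share was 5.14% of 27305 genes, 55.6% of 27 genes for translation factors and related proteins, and 8.70% of 69 mitochondrial ribosomal protein genes. It was 86.4% of 22 other cytosolic ribosomal protein genes. The sequence CGGAAG or its complement CTTCCG, the core that ETS factors recognise, lay between 250 bases before and 50 bases after the start in 54.8% of the members and in 22.6% of all genes. This core was not particular to the members. Its share was 81.8% in the other cytosolic ribosomal protein genes, 55.1% in the mitochondrial ones and 48.1% in the translation factor list. The windows below run from 10 bases before the start through the first 20 transcribed bases, and capitals mark the tract at the start. The first 4 belong to members high after the siRNA in at least 1 line or to the S6 kinase substrate, and RPLP0 is a common reference gene. RPS25, RPL3 and RPL10A were low after the siRNA, and RPS15 and RPS28 had the highest ratios of LIM1215 over HT29 in the control libraries.
RPL34 (chr4:108620566-108620595, plus strand): cttttttcttCCTCTTCCggggacgttgtc
RPL13 (chr16:89560672-89560701, plus strand): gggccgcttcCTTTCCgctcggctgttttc
RPLP1 (chr15:69452808-69452837, plus strand): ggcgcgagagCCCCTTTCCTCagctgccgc
RPS6 (chr9:19380217-19380246, minus strand): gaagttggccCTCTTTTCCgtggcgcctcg
RPLP0 (chr12:120201092-120201121, minus strand): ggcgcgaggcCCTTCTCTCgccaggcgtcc
RPS25 (chr11:119018324-119018353, minus strand): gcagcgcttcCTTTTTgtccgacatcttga
RPL3 (chr22:39319604-39319633, minus strand): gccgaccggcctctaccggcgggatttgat
RPL10A (chr6:35468391-35468420, plus strand): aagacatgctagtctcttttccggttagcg
RPS15 (chr19:1438386-1438415, plus strand): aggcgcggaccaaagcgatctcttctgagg
RPS28 (chr19:8321486-8321515, plus strand): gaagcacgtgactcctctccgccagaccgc

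The RPS25 window, with a tract of 6 bases, belongs to a gene that was lower after the siRNA in both lines, and the RPS15 window, with no tract at the listed start, to one of the highest in HT29. Members with a TOP start and the 13 without one had median log2 ratios, siRNA over control, of 0.28 and 0.25 (HT29) and of 0.07 and 0.07 (LIM1215). A listed start need not be the start used in these cells.

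The libraries were comparable in size. Read from the steps of low values, 1 unit of FPKM was worth 18.12 to 21.54 fragments per kilobase. TMEM161A itself had an FPKM of 42.6 (HT29 NC), 4.64 (HT29 si2), 39.1 (LIM1215 NC) and 7.61 (LIM1215 si2), lower in both knockdown libraries as labelled. Both knockdown libraries carry the same siRNA label (si2). Effects of losing TMEM161A and of the siRNA on other transcripts therefore cannot be told apart for any gene here. Mitochondrial genes held 13.9% to 16.4% of the summed FPKM, less in each knockdown library than in its control. The sum of all FPKM in the knockdown was 105.7% of the control sum in HT29 and 100.4% in LIM1215, and the LIM1215 control sum was 113.4% of the HT29 one.

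All members were abundant. Their FPKM lay between 543 (RPS28 in the HT29 control) and 4714 (RPS2 in the HT29 knockdown), while the median over the 14803 genes was 11.8 to 13.3. Together they held 11.9% of all FPKM in HT29 NC, 13.4% in HT29 si2, 11.5% in LIM1215 NC and 11.99% in LIM1215 si2. Without mitochondrial genes in the sum, these shares were 14.1%, 15.6%, 13.7% and 14.0%. The HT29 knockdown library thus held the highest share on either count.

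The order of the members was much the same in every library. Across the 49 genes, Pearson's r of the log2 level was 0.959 for the 2 controls, 0.981 for the HT29 pair and 0.985 for the LIM1215 pair. These correlations are across genes within single libraries and describe them only. RPS2, which lines the mRNA entry channel, was the most abundant member, with FPKM of 4359 in HT29 NC, 4714 in HT29 si2, 4293 in LIM1215 NC and 4170 in LIM1215 si2. RPS27, a zinc-binding small subunit protein, followed with 3470, 4319, 3912 and 4303 in the same order. RPL8, which sits near the peptidyl transferase centre, had 3495, 4316, 3714 and 3750. All 3 were highest in the HT29 knockdown library.

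At the low end, RPL22, a large subunit protein whose loss a paralog can cover, had FPKM of 633 in HT29 NC, 752 in HT29 si2, 709 in LIM1215 NC and 686 in LIM1215 si2. RPS28, a small subunit protein, had 543, 648, 930 and 1043 in that order. RPS25, a small subunit protein needed for internal initiation on some mRNAs, had 954, 887, 903 and 758. Per length, the lowest members were thus 6.06 to 8.02 times less abundant than the highest in the same library. Between libraries a member varied far less, and the highest library exceeded the lowest by a median of 1.25 times over the members and at most by 1.92 times (RPS28).

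**Figure D1:**
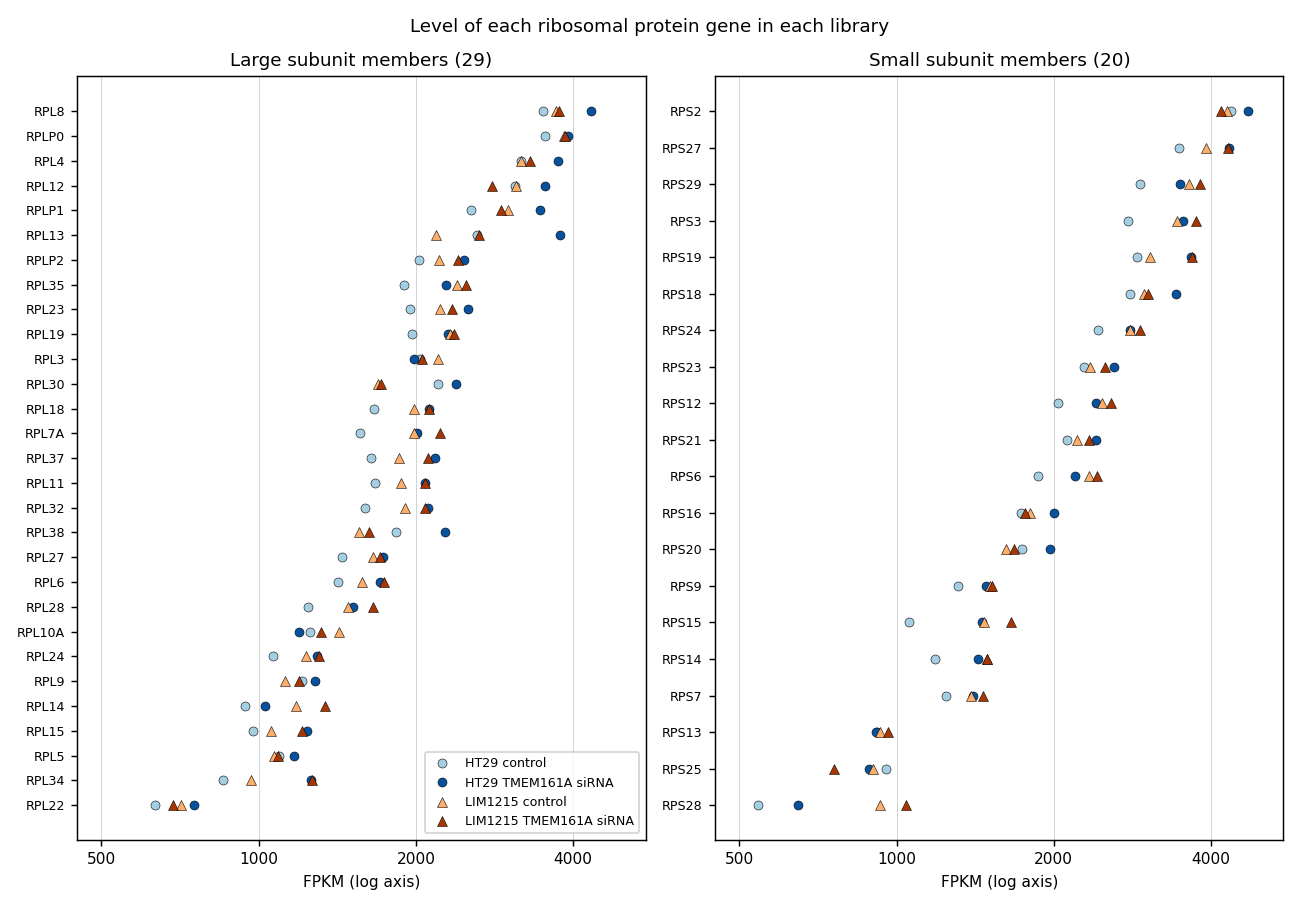
FPKM (log axis) of each large subunit member (left) and small subunit member (right) in the 4 libraries, ordered by the mean; circles are HT29 and triangles LIM1215, with lighter fill for control siRNA and darker for TMEM161A siRNA. The HT29 knockdown lies right of the HT29 control for 45 of 49 members, and RPS28 is the gene whose lines stand farthest apart.

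In HT29, nearly all members were slightly higher after the TMEM161A siRNA. The log2 ratio (1 added to each FPKM, si2 over NC) was above 0 for 45 of 49 members, against 53.9% of all genes compared, and its median over the members was 0.26, against 0.04 over all genes. At least 1.2-fold higher were 23 of the 49, against 26.0% of all genes, and no member was 1.2-fold lower, against 20.5%. Because whole cultures were measured, a change in the mix of cells and a change in RNA per cell cannot be told apart here. No member passed 2-fold in either direction, against 3.80% of all genes. The ratios were narrow, from −0.11 to 0.56, with a scaled median absolute deviation (a MAD multiplied so that it is comparable to an SD) of 0.11 against 0.35 over all genes.

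In LIM1215 the shift was smaller. The log2 ratio was above 0 for 41 of 49 members, against a background of 53.1%, with a median of 0.07 over the members and 0.02 over all genes. Only RPL34, RPL13 and RPS19 were 1.2-fold higher, a share below the 23.6% of all genes, and no member was 1.2-fold lower, against 19.2%. None passed 2-fold, against 3.46%. The scaled MAD was 0.08 over the members and 0.32 over all genes, which include genes at far lower levels. Over the 1175 genes with a mean FPKM of at least 100 it was 0.26 in HT29 and 0.21 in LIM1215. The members thus stayed closer together than these abundant genes too, by a smaller margin. Of the abundant genes, 24.7% were 1.2-fold higher in HT29 and 12.7% in LIM1215, and 11.9% and 12.3% were 1.2-fold lower.

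The size of the shift depends on the scaling of the libraries, which moves all genes of a comparison alike. With FPKM rescaled to a common sum, the members' median in HT29 was 0.18 and that of all genes −0.017, and 10 of 49 members were 1.2-fold higher, close to the 20.1% of all genes. With a common sum over genes other than the members and the mitochondrial genes, the HT29 median was 0.17, and the 8 of 49 members 1.2-fold higher were a smaller share than the 19.6% of all genes. The excess of members past 1.2-fold thus ended under these scalings. Over all genes, the split of 26.0% higher and 20.5% lower turned to 20.1% and 25.6% under the common sum. The number of members above 0 in HT29 was 44 or 45 under each scaling tried, and in LIM1215 it ranged from 33 to 41. The share of all genes above 0 under the other scalings is not given here. Their median then lay between −0.023 and 0.0054 in HT29 and between −0.0017 and 0.018 in LIM1215.

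The lines were then compared member by member. Of the 49, 40 were above 0 in both lines, against 36.0% of all genes, and 3 were below 0 in both. The 3 members 1.2-fold higher in LIM1215 were so in HT29 too, against 10.6% of genes for both lines, and none was 1.2-fold lower in both, against 9.00%. The ratios of the lines, which share no library, correlated across the 49 members with r = 0.701 (Pearson) and rho = 0.5996 (Spearman), and across 12246 other protein-coding genes with 0.460 and 0.448. The ratio was larger in HT29 than in LIM1215 for 46 of 49 members, against 52.3% of all genes. This count was 43 to 46 under each scaling tried, for which the matching share of all genes is not given here. The exceptions, RPL9, RPL14 and RPS13, differed between the lines by 0.06 at most.

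**Figure D2:**
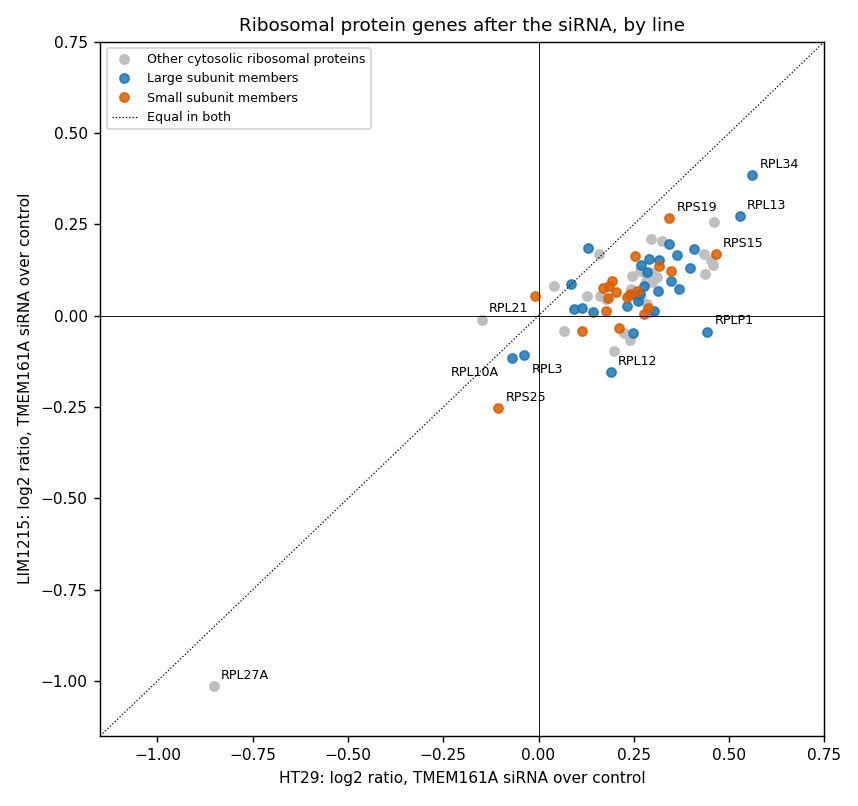
Log2 ratio of FPKM + 1, TMEM161A siRNA over control, in HT29 (x axis) and LIM1215 (y axis); blue points are large subunit members, orange small subunit members and grey the other 31 cytosolic ribosomal protein genes, with equal values on the dotted line. The members lie between −0.25 and 0.56, RPS25 lowest and RPL34 highest, and RPL27A, outside the set, lies apart at −0.85 and −1.01.

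RPL34, a large subunit protein (ENSG00000109475, chromosome 4, 108620569 to 108630412, plus strand, GRCh38), was the highest member in both lines. Its FPKM was 855 in HT29 NC and 1261 in HT29 si2, and 968 in LIM1215 NC and 1264 in LIM1215 si2. The knockdown libraries were thus nearly level and both above the controls, with HT29 si2 at 148% of NC (95% counting interval 140.5% to 154.9%) and LIM1215 si2 at 131% (124% to 137%). The log2 ratios were 0.56 and 0.38, which lie 2.66 and 3.93 scaled MADs above the members' medians. With more than 3 scaled MADs taken as leaving the group, RPL34 left it in LIM1215.

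RPL13, another large subunit protein, was second. Its FPKM went from 2616 to 3774 in HT29 (log2 ratio 0.53), and in LIM1215 from 2185 to 2640 (0.27). RPS19, the first gene linked to Diamond-Blackfan anaemia, went from 2881 to 3655 in HT29 (0.34), and in LIM1215 from 3053 to 3676 (0.27). The control libraries were below the knockdown libraries for RPS19 in both lines, and for RPL13 within each line. RPS15, a small subunit protein near the decoding site, went from 1055 to 1457 in HT29 (0.46), and in LIM1215 from 1473 to 1655 (0.17), with the HT29 control well below the other 3 libraries.

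RPS25 (ENSG00000118181, chromosome 11, 119015712 to 119018691, minus strand) left the group downward in both lines. Its FPKM was 954 in HT29 NC and 887 in HT29 si2, and 903 in LIM1215 NC and 758 in LIM1215 si2. HT29 si2 was at 93.0% of NC (counting interval 88.6% to 97.5%) and LIM1215 si2 at 83.9% (79.6% to 88.6%). Its log2 ratios of −0.11 and −0.25 placed it −3.21 and −3.93 scaled MADs from the members' medians. They were below 0 under each scaling tried as well. Each of those scalings lowered the members' medians in both lines, so this does not show that the sign is firm. Neither RPS25 nor RPL34 lay more than 0.5 from the median in log2, the wider limit tried.

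Among the remaining members below 0 in both lines were RPL10A, which forms the mobile L1 stalk where used tRNA leaves, and RPL3, which reaches toward the peptidyl transferase centre. RPL10A had FPKM of 1254 and 1196 in HT29 (−0.07) and of 1427 and 1317 in LIM1215 (−0.12). RPL3 had 2039 and 1986 in HT29 (−0.04) and 2209 and 2051 in LIM1215 (−0.11). RPL10A stood −2.89 and −2.25 scaled MADs from the members' medians and RPL3 −2.61 and −2.14, inside the limit. RPS13 had 919 and 913 in HT29 (−0.0092) and 929 and 964 in LIM1215 (0.05), nearly level in all 4 libraries.

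The stalk proteins recruit translation factors, with RPLP0 as the base that carries dimers of RPLP1 and RPLP2. RPLP0 had FPKM of 3532 in HT29 NC, 3901 in HT29 si2, 3839 in LIM1215 NC and 3865 in LIM1215 si2, with log2 ratios of 0.14 and 0.01. RPLP1 had 2543, 3459, 3003 and 2914, with 0.44 in HT29 and −0.04 in LIM1215, the widest gap between the lines of any member (−0.49). RPLP2 had 2026, 2466, 2217 and 2411, with 0.28 and 0.12. RPLP2 therefore stood at 79.7% of RPLP1 in the HT29 control and 71.3% in the knockdown, and at 73.8% and 82.8% in LIM1215, opposite directions in the lines. RPL12, at the stalk base, was also higher in HT29 (3091 to 3524, 0.19) and lower in LIM1215 (3110 to 2796, −0.15).

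RPL5 and RPL11, which carry 5S rRNA and bind MDM2, behaved unequally. RPL5 had FPKM of 1095 and 1167 in HT29 (0.09) and of 1072 and 1087 in LIM1215 (0.02). RPL11 had 1673 and 2084 in HT29 (0.32) and 1869 and 2079 in LIM1215 (0.15). RPL11 was above the members' median in both lines and RPL5 below it. MDM2, their binding partner, went from 98.8 to 126 in HT29 (0.35), and in LIM1215 from 88.1 to 143 (0.70). CDKN1A, an inhibitor of cyclin-dependent kinases, had log2 ratios of 1.12 and 1.33.

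RPS6, the substrate by which S6 kinase activity is commonly read, had FPKM of 1868 in HT29 NC, 2195 in HT29 si2, 2335 in LIM1215 NC and 2419 in LIM1215 si2. Its log2 ratios of 0.23 and 0.05 lay near the members' medians. Further members of the small subunit were close to it. RPS3, at the mRNA entry, had log2 ratios of 0.35 and 0.12, RPS14, the gene of the 5q- syndrome, 0.28 and 0.0046, RPS23, in the decoding centre, 0.19 and 0.10, and RPS24, RPS12, RPS18, RPS29, RPS9, RPS7, RPS20 and RPS21 lay between 0.17 and 0.29 in HT29 and between 0.01 and 0.08 in LIM1215. RPS16 had 0.21 and −0.03, and RPS2 0.11 and −0.04.

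Of the large subunit, RPL4, which lines the peptide exit tunnel, had log2 ratios of 0.24 and 0.06, and RPL35, near the tunnel exit, 0.27 and 0.06. RPL19 and RPL24, which contribute bridges to the small subunit, had 0.23 and 0.03 and 0.28 and 0.08. RPL38, known for its part in translation of Hox mRNAs, had 0.31 and 0.07. The large subunit members RPL7A (0.36 and 0.17), RPL23 (0.37 and 0.07), RPL32 (0.40 and 0.13) and RPL37 (0.41 and 0.18) were among the higher ones in HT29. RPL6, RPL15, RPL18, RPL27 and RPL28 lay between 0.26 and 0.35 in HT29 and between 0.04 and 0.20 in LIM1215. RPL30 had 0.11 and 0.02.

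The subunits were then set against each other. Over 29 large and 20 small subunit members, the HT29 medians were 0.28 and 0.22, a difference of 0.06, and the LIM1215 medians 0.07 and 0.06, a difference of 0.01. The counting interval of a typical member had a half-width of 0.04 in log2, which does not measure the error of a difference of medians. Among the other cytosolic ribosomal protein genes, the large and small subunit medians were 0.28 and 0.27 in HT29. In LIM1215 they were 0.093 and 0.0996, with the small subunit slightly higher. Of the large subunit members 27 were above 0 in HT29 and 24 in LIM1215, and of the small subunit members 18 and 17, against 53.9% and 53.1% of all genes. The median FPKM of the large subunit members was 85.0% of that of the small subunit members in HT29 NC, 91.5% in HT29 si2, 82.2% in LIM1215 NC and 87.4% in LIM1215 si2. These medians can fall on different genes in each library. By summed FPKM, the log2 ratio of large over small changed after the siRNA by only 0.04 in HT29 and by −0.0052 in LIM1215. Between the control libraries of the lines the difference of the medians, large minus small, was −0.0047, and its sign changed with the members included.

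Features of the genes that were not used to choose them went with little of the variation. Members with at least 10 named pseudogenes in the annotation (23 genes) had medians of 0.23 (HT29) and 0.06 (LIM1215), and the 26 with fewer had 0.28 and 0.07. The number of pseudogenes ranged from 1 to 80 per member, and their summed FPKM came to 0.866% to 1.02% of that of the members. This share was uneven, at 11.6% to 13.9% of the gene's own FPKM for RPS2, 2.23% to 3.47% for RPL32 and 0% for RPLP2. How fragments shared with such copies were counted is not given in the sources used here. The 21 members with a small RNA gene inside the gene body had medians of 0.26 and 0.06, and the 28 without had 0.26 and 0.07. Against coding length, from 168 to 1281 bases, Pearson's r across the 49 members was −0.265 in HT29 and −0.166 in LIM1215.

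The other cytosolic ribosomal protein genes, a list chosen with the members, had medians of 0.28 in HT29 and 0.09 in LIM1215 over 31 genes. Above 0 were 29 and 25 of them, against 53.9% and 53.1% of all genes. They held 1 gene apart from all the rest. RPL27A, a large subunit gene (chromosome 11, 8682788 to 8714759, plus strand), had an FPKM of 1952 in HT29 NC and 1080 in HT29 si2, and 2151 in LIM1215 NC and 1065 in LIM1215 si2. HT29 si2 was thus at 55.4% of NC (log2 ratio −0.85) and LIM1215 si2 at 49.5% (−1.01). On the members' own scale these values lie at −9.79 and −13.3 scaled MADs from the median. RPL27A was the only 1 of the 80 cytosolic ribosomal protein genes past 2-fold in LIM1215, and none was past it in HT29. Its pair of controls differed by 0.14, close to the members' median.

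Paralogs of the ribosomal proteins had values on both sides of 0. RPL22L1, the paralog of RPL22, had an FPKM of 473 in HT29 NC and 376 in HT29 si2 (−0.33), and 302 in LIM1215 NC and 195 in LIM1215 si2 (−0.63). It therefore stood at 74.7% of RPL22 in the HT29 control and 50.1% in the knockdown, and at 42.7% and 28.4% in LIM1215. RPS27L, the paralog of RPS27, went from 126 to 181 in HT29 (0.52), and in LIM1215 from 138 to 193 (0.49). RPL7L1 had 0.24 and 0.25, RPL26L1 0.11 and −0.20, and RPL36AL 0.15 and −0.01. RPL39L was listed at 0 in both HT29 libraries and at 8.76 and 7.54 in LIM1215.

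A list of translation factors and related genes, many of which have TOP mRNAs too, shifted less. Among the related genes, which are not translation factors, were BTF3, NACA, NAP1L1, NPM1 and TPT1. Over 34 genes the median was 0.11 (HT29) and 0.04 (LIM1215), with 10 of them 1.2-fold higher in HT29, a share near the 26.0% of all genes, and 1 in LIM1215, a share below the 23.6%. In each line 1 was 1.2-fold lower, against 20.5% (HT29) and 19.2% (LIM1215) of all genes. EEF2, which moves the ribosome along the mRNA, went from 1705 to 2643 in HT29 (0.63), and in LIM1215 from 2166 to 2445 (0.17), a pair of values chosen after they were seen. By the smaller ratio shared by both lines, the 2 highest were EIF3B, an initiation factor subunit (0.55 and 0.34), and EIF4B, a cofactor of the initiation helicase (0.38 and 0.20). The 2 lowest were NAP1L1, a histone chaperone (−0.19 and −0.11), and EIF4H (−0.06 and −0.09). Mitochondrial ribosomal proteins, which serve another ribosome, had medians of 0.06 in HT29 and −0.06 in LIM1215 over 77 genes. Of these, 46 were above 0 in HT29, a share near the 53.9% of all genes, and 20 in LIM1215, against 53.1%. By that rule the 2 highest were MRPS6 (0.45 and 0.50) and MRPL45 (0.51 and 0.32), and the 2 lowest MRPS18C (−0.28 and −0.75) and MRPL35 (−0.28 and −0.40).

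Chaperones and importers of ribosomal proteins had medians of −0.13 and −0.07 over 11 genes. GRWD1, a chaperone of RPL3, went from 18.6 to 47.3 in HT29 (1.30), and in LIM1215 from 21.8 to 38.1 (0.77), while RPL3 itself was slightly lower in both. BCCIP had 0.33 and 0.21. By the smaller ratio shared by both lines, the importins IPO5 (−0.46 and −0.28) and IPO7 (−0.28 and −0.29) were lowest. Among regulators, MYC went from 215 to 359 in HT29 (0.74), and in LIM1215 from 217 to 267 (0.30), and LARP1 from 73.4 to 105 (0.51) and from 124 to 135 (0.13). RPTOR, the mTOR complex subunit that binds substrates, had 0.56 and 0.54, MTOR had −0.07 and 0.01, and the S6 kinase gene RPS6KB1 −0.04 and −0.15.

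**Figure D3:**
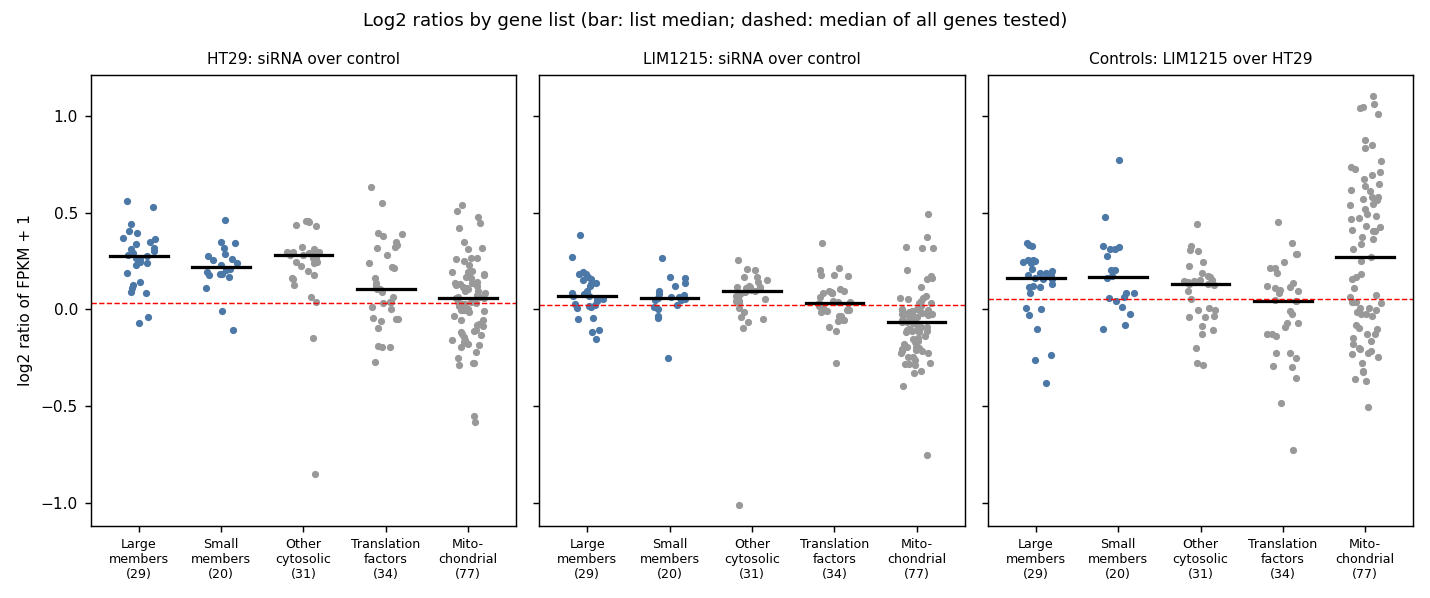
Log2 ratio of FPKM + 1 for each gene of 5 lists (number of genes in brackets) in the 3 comparisons; each dot is 1 gene, the black bar the list's median, and the red dashed line the median of all 14803 genes. The medians of the large and of the small subunit members (blue) lie above the dashed line in all 3 panels as deposited, and the isolated low dot among the other cytosolic genes after the siRNA is RPL27A.

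Between the control libraries, most members were slightly higher in LIM1215 than in HT29 as deposited. This comparison uses the same control libraries as the comparisons with the siRNA. The log2 ratio was above 0 for 41 of 49 members, against 53.7% of all genes, with a median of 0.16 against 0.05. The 1175 genes with a mean FPKM of at least 100 had a median of 0.15, close to that of the members. In the siRNA comparisons the medians of these abundant genes were 0.09 (HT29) and 0.0035 (LIM1215). Of the members 10 were 1.2-fold higher, against 35.7% of all genes, and 1 was 1.2-fold lower, against 29.3%. None passed 2-fold, against 19.4%. The direction of this shift ended with the scaling. Under a common sum the members' median was −0.02, with 21 of 49 above 0, and the median of all genes moved from 0.05 to −0.11, with 27.8% of genes higher and 39.2% lower. In the siRNA libraries, LIM1215 over HT29, the members' median was −0.0055 as deposited, with 23 of 49 above 0, against 52.2% of all genes. Which line had the higher level of the group as a whole therefore depended on the scaling.

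The distance of a member from the members' median does not depend on such a scaling. A member's own ratio and FPKM do, and those below are as deposited. RPS28 (ENSG00000233927, chromosome 19, 8321158 to 8323340, plus strand) was higher in LIM1215 than in HT29, at 171% in the controls (counting interval 159% to 185%) and at 161% in the siRNA libraries (150% to 172%). Its FPKM was 543 and 648 in HT29 and 930 and 1043 in LIM1215. The log2 ratios of 0.77 and 0.68 lay 4.32 and 4.76 scaled MADs above the members' medians. In the annotation RPS28 overlaps 3 other protein-coding genes on the opposite strand, among them NDUFA7 and KANK3, and whether counting used the strand is not given in the sources used here.

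RPL30, a large subunit protein on chromosome 8, was lower in LIM1215. Its FPKM was 2202 and 2382 in HT29 and 1692 and 1717 in LIM1215. The log2 ratios were −0.38 in the controls and −0.47 in the siRNA libraries. These placed it −3.83 and −3.22 scaled MADs from the members' medians. RPL13 (−0.26 and −0.52) and RPL38 (−0.24 and −0.48) were inside the limit in the controls, at −2.98 and −2.81 scaled MADs, and past it in the siRNA libraries, at −3.51 and −3.28. RPL38 had FPKM of 1829 and 2273 in HT29 and of 1554 and 1629 in LIM1215. RPS15 (0.48 and 0.18), RPL7A (0.34 and 0.15) and RPL14 (0.33 and 0.38) were at the upper end in the controls. In the siRNA libraries, 2 members were 1.2-fold higher in LIM1215, against 35.1% of all genes, and 4 were lower, against 30.4%. The differences in the controls and in the siRNA libraries, which share no library, correlated across the 49 members with r = 0.875 (Pearson) and rho = 0.791 (Spearman), below the 0.926 and 0.8496 across 12246 other protein-coding genes.

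**Figure D4:**
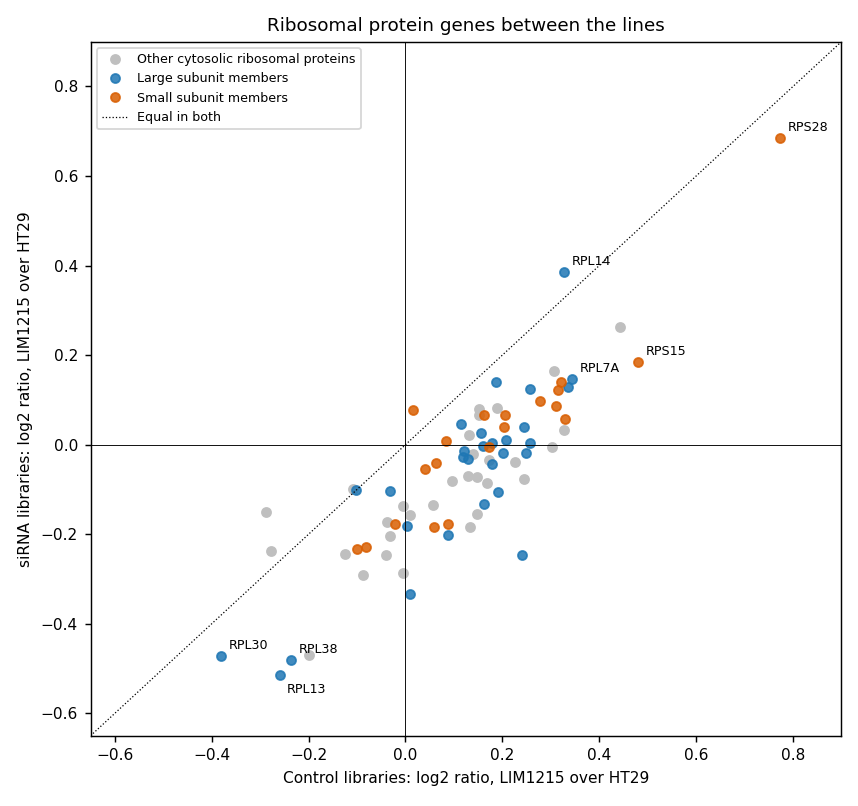
Log2 ratio of FPKM + 1, LIM1215 over HT29, in the control libraries (x axis) and in the siRNA libraries (y axis); blue points are large subunit members, orange small subunit members and grey the other 31 cytosolic ribosomal protein genes, with equal values on the dotted line. RPS28 stands at the upper right with 0.77 and 0.68, and RPL30, RPL13 and RPL38 at the lower left.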

How the data were processed

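Poly(A)-selected stranded RNA libraries, 1 per line and siRNA, were sequenced. The authors deposited FPKM per Ensembl gene, per the file headers. The submitters' processing notes name HISAT2 2.1.0, SAMtools 1.20, Cuffdiff, Cufflinks 2.2.1 and the build GRCh38. The annotation, options, strand setting and treatment of reads shared between gene copies are not given in the sources used here. FPKM is relative to all fragments, so abundant genes affect the values of all others.

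Symbols, positions and coding lengths came from GENCODE release 44 (GRCh38), matched for 56550 of 60658 identifiers. Log2 ratios used a pseudocount of 1 over the 14803 genes with a mean FPKM of at least 1. Genes were counted at 1.2-fold and 2-fold, with no p-value. Depth was estimated from genes with 1 annotated transcript, where 76.1% to 78.3% of low values lay within 0.03 of a whole fragment at a length offset of 202 bases. Counting intervals (95%, exact Clopper-Pearson) took the coding length less that offset, at least 100 bases, which gave at least 1155 fragments per member. They cover counting error only, not cultures or reads shared with pseudogenes. Named genes were the 3 highest and 3 lowest members per comparison, members more than 3 scaled MADs from the members' median, the 3 most and least abundant, members with textbook roles, paralogs, regulators, and the 2 highest and lowest of other lists in both lines. One regulator is not reported here. Members outside this rule are given by their log2 ratios to account for the whole set. The members and lists were chosen with earlier results of these data known. The calculation was tested on simulated data (Python 3.11.15, pandas 2.3.3, scipy 1.17.1, statsmodels 0.14.6). Alternatives were other pseudocounts, filters, scalings, subsets of members, the mean, and log2 ratios corrected for GC content and length (lowess, fraction 0.3).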

Additional observations from a re-analysis of the deposited data

Results flagged for a closer look

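For the results here, the log2 ratio, siRNA over control, was above 0 in one line and below 0 in the other. Each line has 1 library per siRNA, so these differences were not tested, and a ratio near 0 can change sign with the scaling. The difference, LIM1215 minus HT29, was −0.49 for RPLP1 (0.44 and −0.04 in HT29 and LIM1215), −0.34 for RPL12 (0.19 and −0.15), −0.29 for RPL22 (0.25 and −0.05), −0.24 for RPS16 (0.21 and −0.03), −0.15 for RPS2 (0.11 and −0.04) and 0.062 for RPS13 (−0.0092 and 0.053). The 95% counting interval of the LIM1215 level reached 100.1% of control for RPLP1 and 102% for RPL22, and ended at 91.9% for RPL12.

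Among genes outside the group, the difference was −0.30 for RPL26L1, −0.16 for RPL36AL, 0.082 for MTOR, 0.25 for RPS6KA1, −0.31 for EIF4EBP1, 0.49 for EIF4EBP2 and −0.78 for MAX, the partner of MYC (0.16 in HT29 and −0.61 in LIM1215). The median of the 6 paralogs differed by −0.23 and that of the 77 mitochondrial ribosomal proteins by −0.12.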

How the results depend on the processing

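Each group has 1 library, so none could be left out. The labels give no replicate numbers to pair, and a fit over both lines with the line as a block was not run. Pseudocounts of 0.1 and 5, no filter or a mean FPKM of at least 100, and protein-coding genes only left the counts as they were and the medians within the counting interval. In HT29 the members' median was 0.18 with a common sum, 0.17 with a common sum without mitochondrial genes and members, and 0.20 with the trend on GC content and length removed, and 10, 8 and 11 members were then 1.2-fold higher, against 23. The medians of all genes were then −0.017, −0.023 and 0.0054, still below those of the members. The shares of all genes 1.2-fold higher were 20.1%, 19.6% and 21.5% under these settings, so the excess of members past 1.2-fold ended. The count was 13 among 28 members with no small RNA gene inside and 41 when all 80 cytosolic genes were counted, which changes the number of genes. The share of all genes was 26.0% for both. In LIM1215 the count of 3 became 1 after centring, upper quartile scaling, the common sum without mitochondrial genes and members, trend removal, or without hosts of small RNA genes. In that order, the shares of all genes 1.2-fold higher were 21.4%, 22.4%, 21.2%, 20.8% and 23.6%. Between the controls the median of 0.16 became −0.019 with a common sum and −0.014 without mitochondrial genes and members, 0.11 after centring, 0.0075 with upper quartile scaling and 0.040 after trend removal. The count of 10 became 2 under both sums and upper quartile scaling, 3 after trend removal, and 6 in each of 3 subsets of members (no small RNA gene inside, and, chosen after seeing the data, coding length of at least 400 bases or under 10 pseudogenes). The shares of all genes were 27.8% and 28.0% under the sums, 28.9% with upper quartile scaling, 32.3% after trend removal and 35.7% for the subsets. The large minus small subunit difference between the controls was −0.066 as a mean, 0.040 after trend removal and 0.10 with under 10 pseudogenes, so its sign is not fixed. Apart from the subsets, which hold fewer or more genes, the cause was not tested. Of 861 values for named genes under the alternatives, 341 moved by more than the counting interval and 67 changed sign, the latter all below 1.2-fold. Within HT29 the large minus small difference was above 0 under each alternative, and within LIM1215 it was −0.011 after trend removal and above 0 otherwise. Scalings, pseudocounts and filters leave this difference nearly unchanged by construction, so their results say nothing about its sign. The subsets of members, the mean and trend removal could change it, and gave 0.036 to 0.063 in HT29.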
